A study of Mus musculus with 12 samples.

Results

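The reference small RNAs of a TaqMan low-density array (TLDA) were examined, namely the small nuclear RNA U6, the small nucleolar RNAs snoRNA135, snoRNA202 and U87, and the Y RNA Y1. They were chosen by assay name and not by their measured values, though earlier results of these data were known. They occupied 8 of the 384 wells of the array, of which 4 wells measured U6 and 1 well each measured the other RNAs. The remaining wells carried 375 miRNA assays, 335 for mouse and 40 for rat miRNAs, and the plant miRNA ath-miR159a as a negative control. The 12 arrays were run on total RNA of primary pulmonary endothelial cells from male C57BL/6N wild type mice, for which lungs of 3 mice aged 6 to 10 weeks were combined in each isolation and the cells were selected with magnetic beads against CD144 and CD31. 4 arrays came from unstimulated control cells, 4 from cells given Tri-DAP, an agonist of the peptidoglycan sensor NOD1, and 4 from cells given MDP, an agonist of NOD2. Both ligands were used at 10 μg/mL for 6 hours. Arrays are named here by group and by the number in their label, from control 4 to MDP 15. The methods give 4 isolations for each condition, and the paper's results name 4 independent isolations for the arrays. Arrays of different groups may therefore come from the same isolation. Neither the methods nor the labels tie single arrays to an isolation. The label numbers do run in 4 sets of consecutive numbers with 1 array of each group, from control 4, Tri-DAP 5 and MDP 6 to control 13, Tri-DAP 14 and MDP 15. Tests that treat the 12 arrays as separate samples are therefore given beside values within these sets.

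Each well reports the PCR cycle at which its fluorescence crossed a threshold (Ct). An earlier Ct stands for more RNA, a difference of 1 cycle stands for a factor of 2 at full PCR efficiency, and a Ct of 40 stands for a well that crossed no threshold. Ct of different assays also depend on primers and probes, so the Ct values of different RNAs do not rank their amounts. Levels are given as non-normalized Ct unless a reference is named. Because the RNA is taken from whole cultures, fewer cells of a type and less of an RNA in each cell cannot be told apart.

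All of these RNAs are made by other routes than miRNAs. U6 is transcribed by RNA polymerase III and forms part of the catalytic core of the spliceosome, which removes introns in the nucleus. snoRNA135, snoRNA202 and U87 belong to the box C/D class, which guides the addition of methyl groups to ribosomal RNA in the nucleolus and is mostly cut out of introns of host transcripts. Y1, a further product of RNA polymerase III, is bound by the Ro60 protein and has been linked to RNA quality control and DNA replication. MiRNAs are processed by Drosha and Dicer and act in the cytoplasm with Argonaute proteins. A reference RNA serves to remove differences in input and reaction efficiency between arrays, and is chosen on the assumption that its own amount per cell stays the same.

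In RefSeq (GRCm38.p6) the assay names correspond to Rnu6, annotated as a small nuclear RNA of 107 bases, to Snord65 with the synonyms MBII-135 and snoRNA135 (57 bases), to Snord68 with the synonym MBII-202 (48 bases), to Snord87 with the synonym U87 (74 bases) and to Rny1 (111 bases). Snord68 overlaps the span of the ribosomal protein gene Rpl13, Snord87 those of Snhg6, a host gene of small nucleolar RNAs, and Mcmdc2, and Snord65 that of 2410006H16Rik. No sequence of these RNAs or of their assays was used here.

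The 5 RNAs spanned different ranges of Ct over the arrays. U87 and snoRNA202 varied least, by 0.859 and 1.04 cycles over the 12 arrays, against 3.33 cycles for U6, 2.24 for snoRNA135 and 1.83 for Y1. In an exact swap test no pair of them differed in spread after adjustment (smallest adjusted p = 0.215). Without Tri-DAP 8 the SD of U6 fell from 0.883 to 0.652 cycles. Over all arrays U6 and Y1 correlated with the mean miRNA Ct and snoRNA135, snoRNA202 and U87 did not, but within the sets of consecutive numbers the relations of U6 (r = 0.60) and Y1 (r = 0.55) missed the threshold, as did both without Tri-DAP 8 (r = 0.63 and 0.79). No reference RNA differed between control, Tri-DAP and MDP beyond the spread between arrays. No reference RNA was undetermined on any array (0 wells at 40), ath-miR159a was at 40 on all 12 arrays, and between 231 and 254 miRNAs were measured per array. The 174 miRNAs that were measured on all arrays gave the mean miRNA Ct of an array, to which the reference RNAs are compared below. As to the labelled cell type, the endothelial miR-126-3p and miR-126-5p were measured on every array, at Ct 18.6 to 22.4. MiRNAs of other cells were later, with 3 leukocyte miRNAs (miR-142-3p, miR-142-5p and miR-223) on 2 to 12 arrays at Ct 29.9 to 36.6, 5 epithelial miRNAs (miR-200a, miR-200b, miR-200c, miR-141 and miR-429) on 10 to 12 arrays at Ct 25.6 to 35.01, miR-143 and miR-145 of mural cells and fibroblasts on all arrays at Ct 23.1 to 33.1, and 3 muscle miRNAs (miR-1, miR-133a and miR-208) on 3 to 8 arrays at Ct 27.7 to 35.5. Summed over each list, the Ct of the mural miRNAs ran from 22.7 to 30.1 over the control arrays, from 23.0 to 30.1 over Tri-DAP and from 23.1 to 30.1 over MDP, and that of the epithelial miRNAs from 25.6 to 32.0, 26.6 to 31.7 and 26.4 to 29.8. The endothelial sum lay between 18.7 and 20.02, 18.2 and 20.1, and 18.8 and 20.3, the leukocyte sum between 30.2 and 31.8, 30.5 and 32.0, and 29.8 and 32.0, and the muscle sum between 28.9 and 32.1, 31.9 and 35.4, and 27.6 and 31.02, with no muscle miRNA measured on 2 arrays. The ranges overlapped between the groups, except that the muscle sum was later on every Tri-DAP array than on the MDP arrays where it was measured.

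The sets of consecutive numbers stood apart from each other in miR-143 and miR-145, markers of mural cells. In the order of their numbers, the Ct of miR-145 lay at 29.3 to 30.3, 31.8 to 33.1, 27.0 to 28.01 and 23.1 to 23.5 within the sets, without overlap, and that of miR-143 at 28.2 to 29.2, 30.2 to 30.6, 27.0 to 27.4 and 24.84 to 25.03. Y1 and the mean miRNA Ct moved with the sets as well, with 86.9% and 85.6% of their variance within groups lying between sets, against 68.7% for snoRNA202, 62.6% for U6, 45.9% for U87 and 30.3% for snoRNA135. Part of the variance lies between sets even where sets do not differ, and these shares were not tested. The mean Ct of Y1 in the sets was 28.3, 28.6, 27.99 and 27.4, and that of the miRNAs 28.7, 29.3, 28.5 and 28.3.

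U6 was the RNA to which the authors normalized. Its Ct, averaged over the 4 wells of an array, was 19.83, 20.04, 19.26 and 19.45 on control arrays 4, 7, 10 and 13. After Tri-DAP it was 19.68, 21.60, 18.56 and 18.28 on arrays 5, 8, 11 and 14, and after MDP 20.21, 20.01, 18.71 and 19.71 on arrays 6, 9, 12 and 15. The Tri-DAP group held both the latest and the earliest array of the series, Tri-DAP 8 and Tri-DAP 14, which lay 3.33 cycles or 10.02-fold apart, and its range enclosed both other groups. The control arrays spanned the least, and all groups overlapped.

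snoRNA135 was read at 26.54, 25.46, 24.74 and 24.29 on the control arrays, in the same order of arrays. The values were 25.82, 25.46, 26.51 and 26.37 after Tri-DAP and 26.43, 25.04, 25.50 and 26.16 after MDP. Control 13 and control 10 had the earliest values of all arrays and control 4 the latest, so that the control group spanned the whole range of this RNA.

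snoRNA202 stood at 20.71, 20.61, 21.40 and 21.27 on the control arrays, at 20.56, 21.30, 20.98 and 21.14 after Tri-DAP and at 20.39, 20.98, 21.43 and 21.23 after MDP. The group means were 21.0 in each group, with SDs of 0.40, 0.32 and 0.45 (n = 4 each), and every group held values on both sides of that mean.

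U87 gave 27.34, 27.34, 28.20 and 27.67 on the control arrays, 27.41, 27.73, 27.51 and 28.07 after Tri-DAP and 27.54, 27.47, 27.62 and 27.84 after MDP. Control 10 was the latest of all arrays, control 4 and control 7 were earlier than every stimulated array, and control 13 lay among them, so that the control group spanned the range of both others.

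Y1 was measured at 28.37, 28.46, 28.20 and 27.43 on the control arrays, 28.12, 28.87, 27.81 and 27.04 after Tri-DAP and 28.33, 28.42, 27.95 and 27.63 after MDP. As for U6, its latest array was Tri-DAP 8 and its earliest Tri-DAP 14. The mean miRNA Ct ran 28.72, 29.02, 28.68 and 28.22 on the control arrays, 28.82, 29.70, 28.28 and 28.31 after Tri-DAP and 28.63, 29.33, 28.51 and 28.37 after MDP, again with the latest value on Tri-DAP 8.

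**Figure D1:**
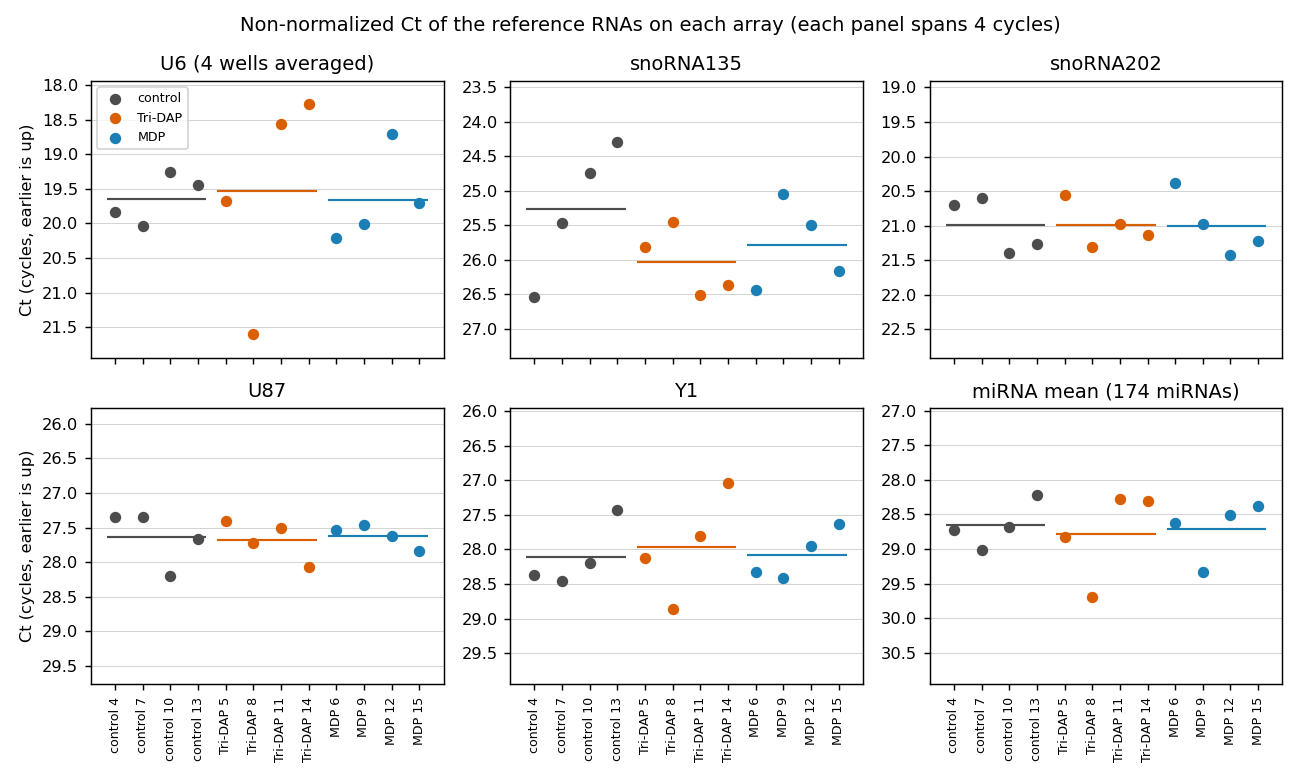
Non-normalized Ct in cycles (vertical axis, earlier Ct upwards) of U6, snoRNA135, snoRNA202, U87, Y1 and the mean of 174 miRNAs on each of the 12 arrays, with 1 point per array, a line at each group mean and the same span of 4 cycles in every panel. The points of U87 and snoRNA202 lie within 0.859 and 1.04 cycles, those of U6 within 3.33 cycles, from Tri-DAP 8 to Tri-DAP 14.

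The U6 value of an array rests on 4 wells, which can be compared with each other. On Tri-DAP 8 the wells lay at 21.68, 21.58, 21.70 and 21.46, within 0.245 cycles, so that its late U6 was shared by all 4 wells. On MDP 6 and MDP 15 the wells spanned 0.95 and 0.87 cycles. On the other 9 arrays they spanned more than 1 cycle, on 7 of them more than 2 cycles and on 3 more than 3 cycles. The widest array was Tri-DAP 14, with wells at 17.57, 20.35, 15.95 and 19.24, a range of 4.39 cycles or 21.0-fold for the same RNA in the same reaction mix.

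On several arrays 1 well stood apart from 3 that lay close together. MDP 12 had wells at 19.88, 19.31 and 19.98 and 1 more at 15.67, and MDP 9 had 1 well at 17.48 beside 21.06, 20.85 and 20.65. Control 4 and Tri-DAP 5 each had the third well earliest, at 18.03 beside 20.23 to 20.68 and at 17.92 beside 20.01 to 20.72. On these 4 arrays the deviating well was earlier than the others. On Tri-DAP 11 it was later, at 19.88 beside 17.82 to 18.35. The mean of an array was drawn towards such a well, by -0.885 cycles against the median of the wells on MDP 12 and by 0.288 on Tri-DAP 11.

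The deviating well was not the same position on each array. The third well of the table was the earliest on 6 arrays and the latest on 4, and the last was the earliest on 3. The mean Ct of the wells over the arrays was 19.9, 19.9, 19.2 and 19.4, and their SDs over the arrays were 1.11, 1.202, 1.64 and 1.43 cycles. Single wells also differed in how far they followed the miRNAs, with Pearson's r against the mean miRNA Ct of 0.73, 0.18, 0.66 and 0.52 over the 12 arrays, given as a description.

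Of the variance of single U6 wells within groups, 71.3% lay between wells of the same array and 28.7% between arrays. Pooled over the arrays, the SD between wells of an array was 1.21 cycles, which gives the mean of 4 wells an error of 0.603 cycles. On single arrays the SD of the wells ran from 0.112 to 2.05 cycles, so this error differed between arrays. The SD between arrays of a group beyond the pooled error was 0.765 cycles. By this split 38.3% of the variance of the U6 means between arrays came from the wells. With the median of the 4 wells the SD over the 12 arrays was 0.931 cycles, with the mean of the 3 wells left after dropping the one farthest from the median 0.898, and with the mean of all wells 0.883, so neither made U6 steadier. The other reference RNAs had 1 well each, and the same split could not be made for them.

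**Figure D2:**
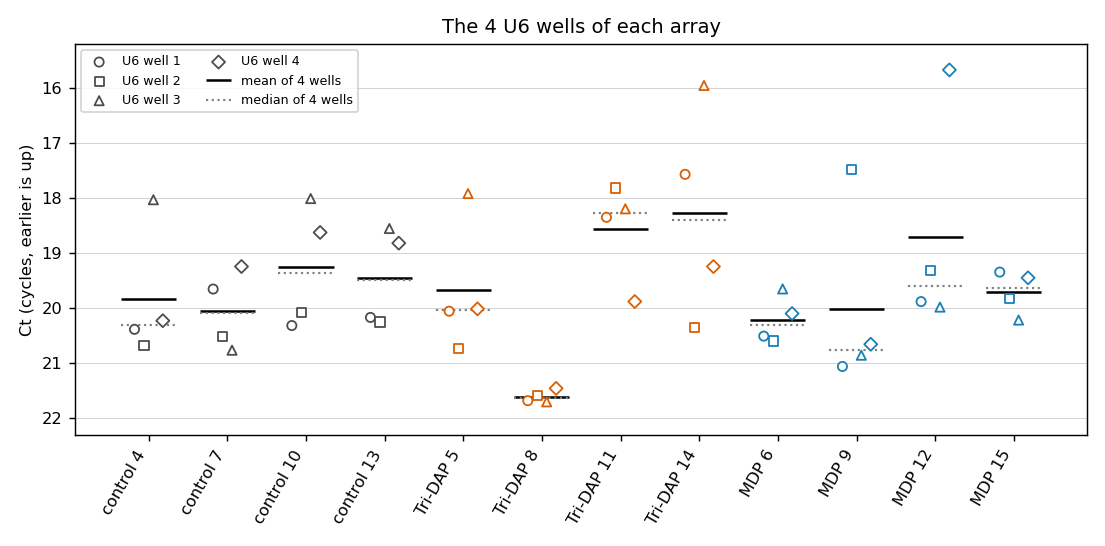
Ct in cycles (vertical axis, earlier Ct upwards) of the 4 U6 wells of each of the 12 arrays (symbols mark the well), with their mean (solid line) and median (dotted line). The wells of Tri-DAP 8 lie within 0.245 cycles and those of Tri-DAP 14 within 4.39 cycles, and on MDP 12 a single well at 15.67 moves the mean away from the median.

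Over the 12 arrays the SD of Ct was 0.275 cycles for U87, 0.355 for snoRNA202, 0.507 for Y1, 0.741 for snoRNA135 and 0.883 for U6, beside 0.449 for the mean miRNA Ct. The order was the same for the SD within groups, at 0.302, 0.393, 0.556, 0.728 and 0.974 cycles. Set among the 174 miRNAs measured on all arrays, whose SD had a median of 0.767 cycles and ran from 0.273 to 7.14, U87 had 1 miRNA below it and snoRNA202 had 10. Y1 had 43 miRNAs below it, snoRNA135 84 and U6 109, so that 62.6% of the miRNAs varied less than U6. U6 was the earliest of the reference RNAs, at a mean Ct of 19.6, and snoRNA202 lay close to it at 21.0, so the Ct did not order the spread.

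Neighbours in this order were not distinguished by a test. In an exact test that swaps both RNAs of a pair within arrays after removing group means (two-sided, 4096 swaps), U6 varied 3.22-fold more than U87 (p = 0.042), snoRNA135 2.41-fold more than U87 (p = 0.015) and snoRNA135 1.85-fold more than snoRNA202 (p = 0.043). In the same exact test U6 against snoRNA202 had a ratio of 2.48 (p = 0.11), U6 against Y1 1.75 (p = 0.080) and U6 against the mean miRNA Ct 1.98 (p = 0.063). After Benjamini-Hochberg adjustment over the 15 pairs, 0 passed, and the smallest adjusted p of this exact test was 0.215. With the median of the U6 wells instead of the mean, U6 varied 3.32-fold more than U87 and 2.04-fold more than the mean miRNA Ct, each at an adjusted p of 0.048 by the exact test. Without Tri-DAP 8, the SD of U6 was 0.652 cycles and the ratios fell to 1.85 for U6 over U87 (adjusted p = 0.31, exact test), 1.49 over snoRNA202, 1.29 over Y1 and 1.63 over the mean miRNA Ct, and U6 was then 0.806 times as variable as snoRNA135. The exact test treats the arrays of a set as separate.

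**Figure D3:**
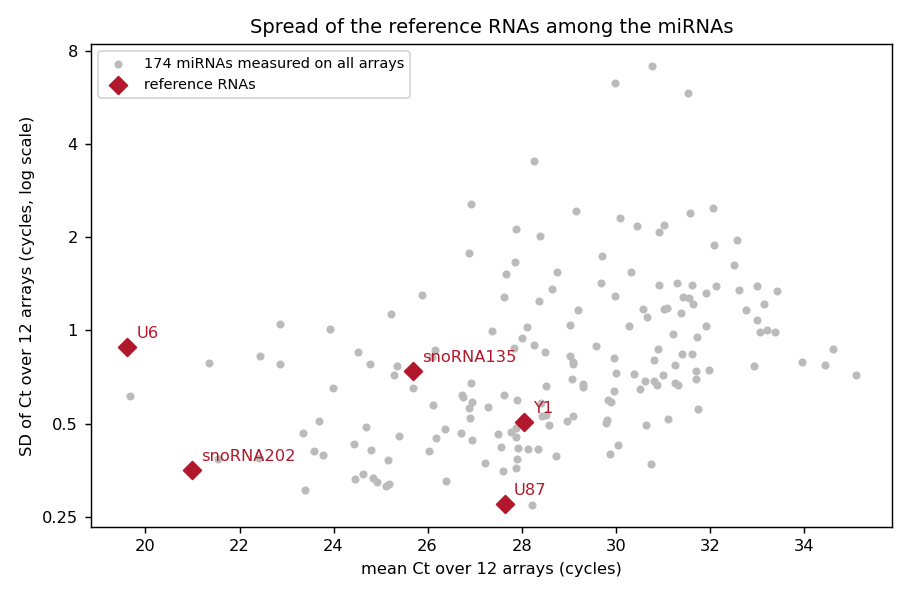
SD of Ct over 12 arrays in cycles (vertical axis, log scale) against the mean Ct in cycles for the 174 miRNAs measured on all arrays (grey) and the 5 reference RNAs (red diamonds). U87 at 0.275 and snoRNA202 at 0.355 lie at the lower edge of the miRNAs, U6 at 0.883 and snoRNA135 at 0.741 near the middle.

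Whether the reference RNAs followed the same changes between arrays was examined by correlation over the 12 arrays, with permutation tests adjusted over 15 pairs. Both values of a pair come from the same RNA and the same card, and the permutations treat all arrays as exchangeable. U6 and Y1 rose and fell together, with Pearson's r = 0.79 (adjusted permutation p = 0.012) and Spearman's rho = 0.81 (adjusted permutation p = 0.016). Y1 followed the mean miRNA Ct with r = 0.84 (adjusted permutation p = 0.0078) and rho = 0.91 (adjusted permutation p = 0.0019). For U6 and the mean miRNA Ct r was 0.81 (adjusted permutation p = 0.0093) and rho 0.72 (adjusted permutation p = 0.055).

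The 3 small nucleolar RNAs did not show this relation over all arrays. Their r with the mean miRNA Ct was -0.21 for snoRNA135, -0.10 for snoRNA202 and -0.25 for U87, and with U6 it was -0.16, -0.21 and -0.28. snoRNA202 and U87 had an r of 0.67 with each other, which missed the threshold (adjusted permutation p = 0.060), and a rho of 0.70 (adjusted permutation p = 0.055). snoRNA135, the third of this class, had an r of -0.48 with snoRNA202 and of -0.21 with U87. In no other pair did the adjusted permutation p fall under the threshold, and the r of those pairs ran from -0.48 to -0.09.

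The relations were little changed when group means were removed, at r = 0.79 for U6 with Y1, 0.82 for U6 with the mean miRNA Ct, 0.87 for Y1 with it and 0.68 for snoRNA202 with U87. Their r depended on the arrays included. Without Tri-DAP 8 and Tri-DAP 14, the 2 arrays farthest from the median of U6, r fell to 0.53 for U6 with Y1 (adjusted permutation p = 0.29). For U6 with the mean miRNA Ct it fell to 0.58 (adjusted permutation p = 0.23). Leaving out the extremes of U6 itself narrows its range, so a lower r does not show that the relations of U6 rest on those arrays. Y1 kept an r of 0.89 with the mean miRNA Ct without control 13 and Tri-DAP 14, the arrays farthest from its own median (adjusted permutation p = 0.0058). When only Tri-DAP 8 was left out, r was 0.71 for U6 with Y1, 0.63 for U6 with the mean miRNA Ct and 0.79 for Y1 with it, with adjusted permutation p-values of 0.11, 0.14 and 0.057. Groups of 4 arrays were too small for a correlation within a group.

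Within the sets of consecutive numbers, after removal of the set means, the picture differed. U6 and Y1 had an r of 0.94 (adjusted p = 0.035, exact permutation within sets, 1296 permutations, 15 pairs), and this was the only pair to pass. The r with the mean miRNA Ct was 0.60 for U6 and 0.55 for Y1, both at an adjusted p of 0.32 in the same exact test. For snoRNA202 and U87 it was 0.88 and 0.69, positive where it was negative over all arrays, each at an adjusted p of 0.21, and for snoRNA135 it was -0.21. snoRNA202 and U87 had an r of 0.41 with each other. The correlations over the 12 arrays include the differences between the 4 sets, so their p-values may count arrays of a set as separate evidence when they are not.

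Some markers of other cell types moved with Y1 and U6. Of the 15 marker miRNAs 6 were measured on all arrays, and over the 12 arrays miR-143, miR-145 and the epithelial miR-429 had an r of 0.94, 0.91 and 0.84 with Y1, of 0.68, 0.62 and 0.66 with U6, and of 0.86, 0.82 and 0.79 with the mean miRNA Ct. With snoRNA202 their r was -0.44, -0.48 and -0.51, with U87 -0.55, -0.59 and -0.48, and with snoRNA135 it lay close to 0, at -0.002, -0.005 and -0.04. MiR-126-3p and miR-126-5p had an r of -0.30 and -0.46 with Y1 and the leukocyte miR-223 of 0.48. Whether other cells in the cultures had a part in the values of Y1 and U6 was not tested.

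Over all arrays, per cycle of the mean miRNA Ct, the Ct of Y1 moved by 0.96 cycles (SE 0.19) and that of U6 by 1.596 (SE 0.36), while the slopes of snoRNA135, snoRNA202 and U87 were -0.35 (SE 0.51), -0.08 (SE 0.25) and -0.15 (SE 0.19). These SEs treat the 12 arrays as separate, and no slope was fitted within sets. There r with the mean miRNA Ct was 0.60 for U6, 0.55 for Y1 and 0.88 for snoRNA202. On Tri-DAP 8 the miRNAs came 0.98 cycles later than on the average array and U6 came 1.99 cycles later. On Tri-DAP 14 the deviations from the average array were -0.40 cycles for the miRNAs and -1.33 for U6.

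The difference of Y1 to the mean miRNA Ct accordingly had the smallest SD over arrays, 0.272 cycles, against 0.582 for U87, 0.583 for U6, 0.601 for snoRNA202 and 0.944 for snoRNA135. Among the 174 miRNAs, for which the median of this SD was 0.663, Y1 ranked at place 10, U6 and U87 at 76, snoRNA202 at 80 and snoRNA135 at 120. Thus the order by this measure differed from the order by Ct alone, in which U87 came first and U6 last. On this scale Y1 varied less over all arrays than each of the other 4 reference RNAs, with adjusted p-values from 0.0024 to 0.038 in the exact swap test, which treats the arrays of a set as separate. Within sets, r with the mean miRNA Ct was higher for snoRNA202 (0.88) and U87 (0.69) than for Y1 (0.55). The order over all arrays therefore does not rank the reference RNAs within sets. Between pairs of reference RNAs the SD of the difference was smallest for snoRNA202 and U87, at 0.265 cycles, and was 0.573 for U6 and Y1, 1.02 for U6 and snoRNA202 and 1.24 for U6 and snoRNA135. U6 lay 2.86 cycles before snoRNA202 on Tri-DAP 14 and 0.30 cycles after it on Tri-DAP 8.

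**Figure D4:**
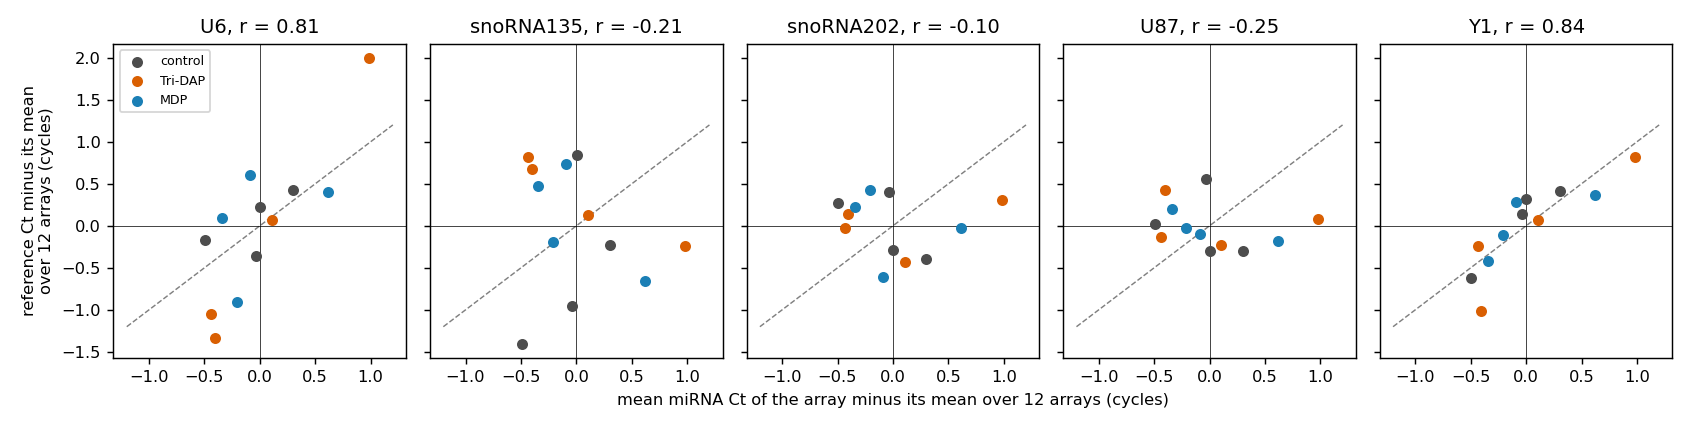
Ct of each reference RNA on each of the 12 arrays minus its own mean (vertical axis, cycles) against the mean Ct of 174 miRNAs on the same array minus its mean (horizontal axis, cycles), coloured by group, with the line of equal change dashed and r over all arrays above each panel. Y1 (r = 0.84) follows the dashed line, U6 (r = 0.81) runs steeper, and snoRNA135, snoRNA202 and U87 show no rise with the miRNAs over all arrays.

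The comparison of stimulated with unstimulated cells asks whether a ligand moved a reference RNA, in which case normalization to it would move all miRNAs. Group means of Ct were 19.6 ± 0.36, 19.5 ± 1.51 and 19.7 ± 0.67 (SD, n = 4 each) for U6 in control, Tri-DAP and MDP. For snoRNA135 they were 25.3 ± 0.98, 26.04 ± 0.49 and 25.8 ± 0.63, for U87 27.6 ± 0.40, 27.7 ± 0.29 and 27.6 ± 0.16, and for Y1 28.1 ± 0.47, 27.96 ± 0.76 and 28.1 ± 0.37 (SD, n = 4 each). The largest difference was that of snoRNA135, which came 0.78 cycles later after Tri-DAP than in control cells (SE 0.52, 95% interval -0.37 to 1.93) and 0.53 cycles later after MDP (SE 0.52, 95% interval -0.63 to 1.68). Both depended on single control arrays. Without control 4, the control array with the latest snoRNA135, the difference was 1.204 cycles after Tri-DAP, for which limma then gave an unadjusted p of 0.029, and 0.95 after MDP, and without control 13, that with the earliest, it was 0.46 and 0.20.

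The other 4 RNAs had means close to those of the control. After Tri-DAP the differences in Ct to control were -0.11 (SE 0.66) for U6, -0.001 (SE 0.35) for snoRNA202, 0.04 (SE 0.31) for U87 and -0.16 (SE 0.43) for Y1. After MDP they were 0.02 (SE 0.67), 0.01 (SE 0.35), -0.02 (SE 0.32) and -0.03 (SE 0.43). Between MDP and Tri-DAP the differences were 0.13 for U6, -0.25 for snoRNA135, 0.01 for snoRNA202, -0.06 for U87 and 0.12 for Y1. The intervals show what these arrays could not resolve, and with the sets of consecutive numbers as a block the SE after Tri-DAP was 0.48 for U6, 0.49 for snoRNA135, 0.24 for snoRNA202 and for U87 and 0.23 for Y1, with no reference RNA called. For U6 after Tri-DAP the 95% interval ran from -1.57 to 1.34 cycles, for Y1 from -1.10 to 0.79, for snoRNA202 from -0.77 to 0.77 and for U87 from -0.65 to 0.73.

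In the limma fit across all assays, 0 of the 5 reference RNAs passed an unadjusted p under 0.05 in any comparison, and the adjusted p was at least 0.997 for each. Of all assays tested, 2.89% were called in the comparison of Tri-DAP with control, 1.61% in that of MDP with control and 3.25% in that of MDP with Tri-DAP, and 0 passed after adjustment. Two-sided exact permutation tests of 4 arrays against 4, which cannot go below p = 0.029, gave p = 0.29 for snoRNA135 after Tri-DAP, p = 0.43 after MDP, and p = 0.94 and p = 0.97 for U6. Over the 18 comparisons of the 5 RNAs and the miRNA mean, the adjusted p of the exact test was 1 throughout.

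Relative to U6, as the authors normalized, the remaining 4 RNAs were tested on the deposited values. Their differences after Tri-DAP were 0.89 cycles (SE 0.88) for snoRNA135, 0.11 (SE 0.79) for snoRNA202, 0.15 (SE 0.78) for U87 and -0.04 (SE 0.57) for Y1, and after MDP 0.51 (SE 0.88), -0.01 (SE 0.79), -0.04 (SE 0.78) and -0.05 (SE 0.57). Each SE was larger than that of the same RNA without normalization. 0 of the 4 were called, where 1.66%, 1.21% and 2.86% of all assays tested were called in the comparisons of Tri-DAP with control, MDP with control and MDP with Tri-DAP. Without Tri-DAP 8, snoRNA135 relative to U6 was 1.78 cycles later after Tri-DAP, at an unadjusted p of 0.023 from limma.

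The choice of reference changed the spread of the miRNAs between arrays of a group. With no reference the median SD within groups of the 174 miRNAs was 0.777 cycles. After subtraction of U6 it was 1.003 cycles, and 114 miRNAs (65.5%) varied more than before. Subtraction of snoRNA135 gave 1.17 cycles, with 165 miRNAs (94.8%) more variable, snoRNA202 gave 0.900 with 139 (79.9%), and U87 gave 0.855 with 137 (78.7%). Y1 was the only single reference RNA with a median below that of no reference, at 0.759 cycles, with 75 miRNAs (43.1%) more variable. The SD within groups includes differences between the sets of consecutive numbers, which held 86.9% of this variance for Y1 and 85.6% for the mean miRNA Ct. Within sets the r with the mean miRNA Ct was 0.55 for Y1, 0.88 for snoRNA202 and 0.69 for U87. The medians therefore do not rank the references within sets.

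The mean of U6 and snoRNA202, the pair measured by the authors in single-assay real-time PCR, gave a median of 0.769 cycles and 68 more variable miRNAs (39.1%). The mean miRNA Ct, which is made of the same miRNAs, gave the smallest median, 0.690 cycles, with 63 more variable (36.2%). Among the 110 miRNAs with a mean Ct under 30, the median was 0.655 cycles with no reference, 0.901 with U6, 1.08 with snoRNA135, 0.739 with snoRNA202, 0.750 with U87, 0.658 with Y1, 0.590 with U6 and snoRNA202 and 0.559 with the miRNA mean. These medians are descriptions without a test.

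**Figure D5:**
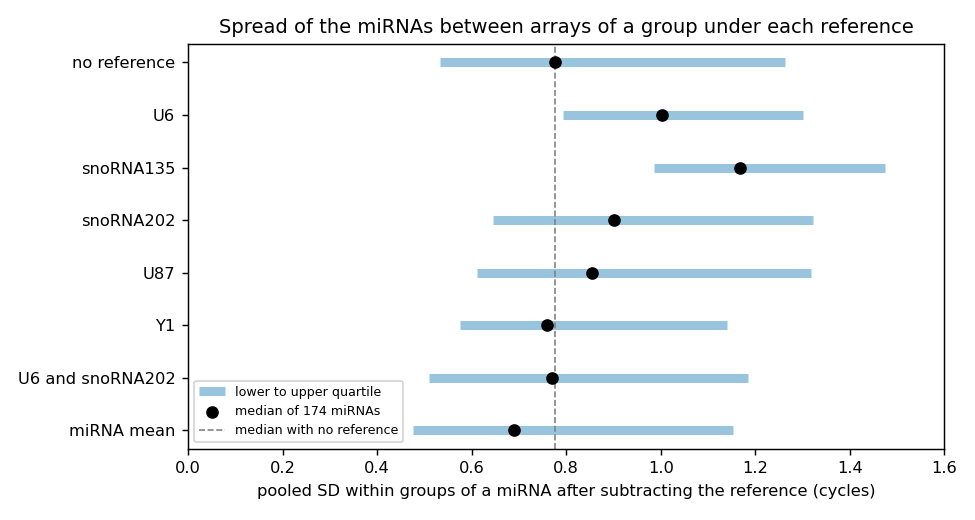
SD within groups in cycles (horizontal axis) of the 174 miRNAs after subtraction of each reference (rows), with the median as a point and the lower to upper quartile as a bar, and the median without a reference as a dashed line. The medians for U6 (1.003) and snoRNA135 (1.17) lie right of the dashed line at 0.777, Y1 (0.759) next to it and the miRNA mean (0.690) left of it. The SD includes differences between the sets of consecutive numbers.

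The reference also set the level of all miRNAs against the control. The following values are differences of level on the log2 scale, in which a positive value stands for more RNA than in control cells. After Tri-DAP the median difference over 237 miRNAs was -0.10 with no reference, -0.24 with U6, -0.28 with Y1, -0.11 with snoRNA202, -0.06 with U87, 0.67 with snoRNA135 and 0.01 with the miRNA mean. Accordingly 75.1% of the miRNAs were below control with U6, 79.7% with Y1 and 14.8% with snoRNA135. After MDP the median over 244 miRNAs was -0.02 with U6, -0.08 with Y1, -0.03 with snoRNA202, -0.06 with U87 and 0.48 with snoRNA135. The groups share their control arrays, and when each array was left out in turn the median with snoRNA135 stayed between 0.37 and 1.13 after Tri-DAP, while that with U6 ran from -0.66 to 0.04.

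The number of miRNAs called at an unadjusted p under 0.05 by limma differed by a few calls between the references, and single arrays moved it by more. In the comparison of Tri-DAP with control it was 4 with U6, snoRNA135 and snoRNA202, 5 with U87 and with the miRNA mean, 6 with U6 and snoRNA202, 7 with no reference and 9 with Y1. Each of these counts is out of 237 miRNAs and lies under the share of 0.05 that the threshold passes when nothing differs. All 4 calls with snoRNA135 were higher after Tri-DAP, and all 4 with U6 and all 9 with Y1 were lower. These directions had the sign of the median difference over all miRNAs, which was 0.67 with snoRNA135, -0.24 with U6 and -0.28 with Y1. For MDP against control the counts ran from 3 with U6 and with snoRNA202 to 9 with snoRNA135, and for MDP against Tri-DAP from 3 with snoRNA135 to 8 with U87 and with no reference. With U6, leaving out 1 array gave 1 (without Tri-DAP 5) to 12 calls (without Tri-DAP 8) for Tri-DAP against control and 2 (without Tri-DAP 14) to 17 (without Tri-DAP 8) for MDP against Tri-DAP, and undetermined wells kept at 40 gave 8 for Tri-DAP against control, so the counts do not rank the references. After Benjamini-Hochberg adjustment 0 miRNAs passed with any reference, and the smallest adjusted p from limma was 0.327.

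U6 and Y1 shared many of the miRNAs that moved with them over the arrays, as did snoRNA202 and U87, and few moved with snoRNA135. Over the 12 arrays, 80 of the 174 miRNAs (46.0%) had an r above 0.5 with U6 and 83 (47.7%) with Y1, and 66 miRNAs were in both lists. With snoRNA202 22 miRNAs (12.6%) and with U87 17 miRNAs (9.77%) had an r above 0.5, of which 13 were shared. With snoRNA135 there were 5 (2.87%), of which 1 was shared with Y1 and 0 with U6, snoRNA202 or U87. 0 miRNAs were shared between the lists of U87 and of U6 or Y1, while snoRNA202 shared 1 with U6 and 2 with Y1. The median r of the miRNAs was 0.40 with U6, 0.48 with Y1, -0.01 with snoRNA202 and -0.11 with snoRNA135 and with U87. These are descriptions over arrays on which all values share the RNA and the card. Reference RNAs that correlate with each other share miRNAs for that reason alone, and a list of 5 is too short for its overlaps to be read.

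The miRNAs most alike to each reference RNA were taken by the smallest SD over the 12 arrays of the difference of both Ct. For U6 they were miR-16 (0.427 cycles, r = 0.88), miR-301a (0.456) and miR-130b (0.503), where the median over all 174 miRNAs was 0.922. For snoRNA135 they were miR-125a-5p (0.568, r = 0.66), let-7d (0.614) and let-7c (0.628), with a median over all of 1.10. snoRNA202 and U87 had the same 3 miRNAs, miR-24 (0.219 and 0.218 cycles, r = 0.83 with both), miR-34a (0.237 and 0.273) and miR-331-3p (0.241 and 0.275), beside medians of 0.853 and 0.805. For Y1 they were miR-100 (0.207, r = 0.93), let-7i (0.247) and miR-574-3p (0.259), with a median over all of 0.738. The nearest miRNA of each reference RNA is shown with its mature sequence from RefSeq, with the seed (bases 2 to 8), which pairs with target mRNAs, in capitals. Array names without an arm were read as the arm given here, which is the arm long known under that name.
miR-16-5p (U6): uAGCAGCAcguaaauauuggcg
miR-125a-5p (snoRNA135): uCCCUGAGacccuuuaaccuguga
miR-24-3p (snoRNA202 and U87): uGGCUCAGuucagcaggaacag
miR-100-5p (Y1): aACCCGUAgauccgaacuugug
None of these seeds is shared. On GRCm38.p6, miR-16-5p lies at chr3:69009918-69009939 (plus strand) within the span of Smc4 and at chr14:61631936-61631957 (minus strand) within that of the long noncoding RNA Dleu2. MiR-125a-5p lies at chr17:17830817-17830840 (plus strand) within the span of Spaca6, miR-24-3p at chr8:84208875-84208896 and at chr13:63301251-63301272 (plus strand), the latter within the span of Aopep, and miR-100-5p at chr9:41531437-41531458 (plus strand) within the long noncoding RNA Mir100hg.

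As a measure for what a steadier reference on these arrays would look like, the miRNAs were ordered by the SD of their Ct minus the mean miRNA Ct, in which each of them is 1 of 174 members. The smallest SDs were those of let-7i (0.171 cycles), miR-744 (0.230), miR-99b (0.232), miR-26a (0.243) and miR-100 (0.244), against 0.272 for Y1 and 0.583 for U6. Their mean Ct lay at 24.7, 27.6, 24.9, 24.4 and 26.9. Let-7i belongs to the let-7 family, and miR-99b and miR-100 to the miR-100 family, whose members share a seed, as the sequences show.
let-7i-5p: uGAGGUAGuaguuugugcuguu
miR-744-5p: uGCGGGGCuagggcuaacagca
miR-99b-5p: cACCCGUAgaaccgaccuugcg
miR-26a-5p: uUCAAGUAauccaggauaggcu
On GRCm38.p6 these lie at chr10:122985698-122985719 (minus strand) for let-7i-5p, at chr11:65734799-65734820 (minus strand) within the span of Map2k4 for miR-744-5p, at chr17:17830194-17830215 (plus strand) within the span of Spaca6 for miR-99b-5p, and for miR-26a-5p at chr9:119031811-119031832 within Ctdspl and chr10:126995543-126995564 within Ctdsp2 (plus strand). The 5 miRNAs were picked by the measure itself, and their values are a description.

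Of 8 miRNAs often used as references, the SD of this difference ran from 0.272 to 0.681 cycles, with a median of 0.415. MiR-103 (0.272) was closest to the mean miRNA Ct, followed by miR-191 (0.328), miR-26b (0.370), miR-93 (0.400) and miR-16 (0.429), whereas miR-17 (0.603), miR-25 (0.630) and miR-24 (0.681) lay beyond the value of U6. By the SD of Ct alone, 6 of the 8 varied less than U6, and miR-191 the least, at 0.305 cycles. MiR-24 was steady in Ct (0.385 cycles) but not relative to the other miRNAs, as was the case for snoRNA202 and U87, to which it was most alike.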

How the data were processed

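TLDAs were run on 12 samples of total RNA after reverse transcription with Megaplex primers. The authors deposited a table of Ct values, a score of PCR cycles here, and a table normalized to U6, which held Ct minus the mean of the 4 U6 wells to within 5.33e-15 cycles. Deposited fold changes between groups were not used, nor were 12 unnamed columns that hold the U6 means. The threshold was set by the instrument software without manual choice, as the methods state.

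Groups were taken from the labels. Wells at 40 were set missing, the U6 wells were averaged, and assays with at least 2 measured values in both groups were tested with lmFit and eBayes of limma 3.58.1 (R 4.3.3), all 12 arrays in one fit with no block, at an unadjusted p under 0.05, with Benjamini-Hochberg adjustment over all assays. Exact permutation and swap tests and permutation tests of correlations (100000 resamples) used Python 3.11.15. Tested on simulated data, in which 50 assays were changed by 2 cycles in 20 runs for Tri-DAP against control (242 tested), the fit recovered 73.2% of the changed assays and called 5.92% of the unchanged ones. The simulated assays varied independently of each other, without the shifts shared by assays and sets of the real arrays. The rates may therefore differ on the real arrays. Alternatives were the median or trimmed mean of the U6 wells, undetermined wells at 40, a Ct limit of 35, Ct minus the mean miRNA Ct, only the groups compared, and each array left out in turn. Added after the data had been seen were leaving out arrays in the correlations and the sets of consecutive label numbers as a block, with correlations tested by exact permutation within sets.

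The reference RNAs, lists and tests were chosen with earlier results of these data known. Named were all reference RNAs with each U6 well, ath-miR159a, the 3 miRNAs most alike to each, the 5 steadiest miRNAs relative to the mean, 8 miRNAs often used as references, and the markers of cell types. Sequences and gene spans are from RefSeq (GRCm38.p6). Depth is described by the measured miRNAs of each array (231 to 254), and precision is limited by having 4 arrays in a group.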

Additional observations from a re-analysis of the deposited data

How the results depend on the processing

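All medians of the miRNA spread under a reference, and the shares of miRNAs made more variable, moved by less than 1.5 times under the alternatives run for them. These were the median or trimmed mean of the U6 wells, miRNAs with a mean Ct under 30, and arrays left out. The sets of consecutive numbers were not among them. For miRNAs with a mean Ct under 30, the median with Y1 (0.658) was no longer below that with no reference (0.655). The labels state no pairing. With the sets of consecutive label numbers as a replicate block, an alternative added after the data had been seen, r was 0.57 for U6 with snoRNA202, 0.34 for U6 with U87, 0.58 for snoRNA202 with Y1, 0.34 for U87 with Y1, 0.88 for snoRNA202 and 0.69 for U87 with the miRNA mean, which all changed sign, and 0.60 for U6 and 0.55 for Y1 with the miRNA mean, which missed the threshold. With that block 12, 9 and 13 of 232, 235 and 232 assays were called in the comparisons of Tri-DAP with control, MDP with control and MDP with Tri-DAP (7, 4 and 8 without it) and 8, 5 and 6 relative to U6 (4, 3 and 7), 0 after adjustment, and no reference RNA. The deviations of the miRNAs from group means correlated with a median r of 0.30 (-0.12 to 0.83) over 12 pairs of arrays of a set and of -0.11 (-0.64 to 0.32) over 36 pairs of different sets. Deviations from a group mean sum to 0, so a positive r within sets pulls that of different sets down. The medians are therefore not separate values. The cause of the changes below was not tested, apart from the arrays and wells named.

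As Ct minus the mean miRNA Ct, the SDs over arrays were 0.583 for U6, 0.944 for snoRNA135, 0.601 for snoRNA202, 0.582 for U87 and 0.272 for Y1. The ratios of SDs were then 0.637 for U6 over snoRNA135, 0.957 for U6 over snoRNA202 and 0.986 for U6 over U87, which all changed side, 2.34 for U6 over Y1, 3.68 for snoRNA135 over Y1, and 2.45 for snoRNA202 over Y1 and 2.38 for U87 over Y1, which both changed side. On the same scale the differences of U87 after Tri-DAP (-0.078), of U6 (-0.035) and snoRNA202 (-0.040) after MDP and of U87 between MDP and Tri-DAP (0.0067) turned sign, none of them called. With the median of the U6 wells, U6 over U87 (3.32) and U6 over the miRNA mean (2.04) passed adjustment, and Y1 relative to U6 after Tri-DAP was 0.067. Without the 2 arrays farthest from the median, r was 0.53 for U6 with Y1, 0.58 for U6 with the miRNA mean, 0.044 for U6 with snoRNA135 and 0.19 for snoRNA135 with U87. With U6 as the reference, 8 miRNAs were called after Tri-DAP with undetermined wells at 40, and 4 between MDP and Tri-DAP with values above 35 missing.

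Leaving out each array in turn, differences in Ct ran after Tri-DAP from -0.81 to 0.30 for U6, 0.46 to 1.204 for snoRNA135, -0.13 to 0.14 for snoRNA202, -0.089 to 0.23 for U87 and -0.46 to 0.15 for Y1. After MDP they ran from -0.17 to 0.33 for U6, 0.20 (without control 13) to 0.95 (without control 4) for snoRNA135, -0.13 to 0.22 for snoRNA202, -0.12 to 0.17 for U87 and -0.26 to 0.12 for Y1. Between MDP and Tri-DAP they ran from -0.29 to 0.82 for U6, -0.47 to -0.0059 for snoRNA135, -0.13 to 0.22 for snoRNA202, -0.15 to 0.068 for U87 and -0.18 to 0.43 for Y1. Only snoRNA135 after Tri-DAP without control 4 (1.204) was called among these. Relative to U6, the differences after Tri-DAP ran from 0.37 to 1.78 for snoRNA135, called without Tri-DAP 8, -0.35 to 0.70 for snoRNA202, -0.39 to 0.83 for U87 and -0.32 to 0.35 for Y1. After MDP they ran from 0.25 to 0.87 for snoRNA135, -0.46 to 0.39 for snoRNA202, -0.35 to 0.28 for U87 and -0.32 to 0.12 for Y1, and between MDP and Tri-DAP from -1.27 to 0.14 for snoRNA135, -0.71 to 0.35 for snoRNA202, -0.87 to 0.36 for U87 and -0.40 to 0.27 for Y1.

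In the same way, the SD over arrays ran from 0.652 (without Tri-DAP 8) to 0.926 for U6 and from 0.341 (without Tri-DAP 8) to 0.470 for the miRNA mean. Ratios of SDs ran from 0.806 to 1.81 for U6 over snoRNA135, 1.85 to 4.55 for U6 over U87, 1.49 to 3.05 for U6 over snoRNA202, 0.983 to 1.68 for snoRNA135 over Y1, 0.635 to 1.09 for snoRNA202 over the miRNA mean and 0.932 to 1.26 for Y1 over the miRNA mean. The r ran from 0.71 to 0.83 for U6 with Y1, 0.63 to 0.85 for U6 with the miRNA mean, 0.79 to 0.89 for Y1 with the miRNA mean, -0.42 to 0.062 for snoRNA135 with U87 and -0.43 to 0.12 for snoRNA135 with Y1. For the first 3 the lowest r, without Tri-DAP 8, missed the adjusted threshold. For snoRNA202 with U87 r ran from 0.62 to 0.74 and passed it without MDP 12, MDP 6 or Tri-DAP 14. With U6 as the reference, 1 to 12 miRNAs were called after Tri-DAP, 1 to 7 after MDP and 2 to 17 between MDP and Tri-DAP, each time with most calls without Tri-DAP 8.

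With 4 arrays per group and a pooled error of 0.603 cycles on a U6 mean, differences within the intervals of the report could not be detected.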
